A study of Mus musculus with 6 samples.

Results

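The antigens used to recognise and sort mouse hematopoietic stem cells (HSCs) were examined at the transcript level in transplanted LSK-SLAM. The genes were Kit, Ly6a, Slamf1, Cd48, Procr, Tek, Cd34 and Flt3, and every non-control probe carrying 1 of these gene names was taken. This gave 11 probes for 8 genes, of 39429 probes for 31693 gene names on the array. Lineage-negative, c-Kit-positive, Sca-1-positive, CD150-positive, CD48-negative cells were sorted from the bone marrow of secondary lethally irradiated recipients (2T), and their RNA was amplified and read on 1-colour Agilent mouse arrays. The graft came originally from fetal liver of WT littermates or of embryos lacking p190-B RhoGAP, encoded by Arhgap5, and had been passed through primary recipients together with WT competitor bone marrow. There were 3 arrays of 2T-WT and 3 of 2T-p190-B-/- LSK-SLAM. The gate as labelled names no donor antigen, so the share of host or competitor cells is not known. The study describes independent 2T mice in each genotype, isolated on separate occasions, and the labels tie neither mice nor occasions to arrays and do not give the age of the recipients.

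Each of these antigens marks a step of early blood formation. Kit is the receptor for stem cell factor, Ly6a encodes Sca-1, and Slamf1 encodes CD150, a receptor of the signalling lymphocyte activation molecule family. Cd48 encodes a glycolipid-anchored relative of CD150 that appears on progenitors and most mature leukocytes, and its absence defines the SLAM gate. Procr (endothelial protein C receptor) and Tek (the angiopoietin receptor Tie2) are carried by HSCs but were not used in the gate. Cd34 and Flt3 are carried by multipotent progenitors of adult marrow and were not used either.

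Spot signals were divided by the 75th percentile of their array and given on the log2 scale, so that 0 is the signal of that percentile. A probe was called detected on an array where the scanner software called its spot well above background. In 2T-WT this held for 48.1% of spots in replicate 1, 66.6% in replicate 2 and 50.1% in replicate 3, and in 2T-p190-B-/- for 72.7%, 52.9% and 64.0% in the same order. The 75th percentile itself, in signal units, was 124.6, 227.4 and 53.9 for 2T-WT, against 385.2, 320.6 and 252.3 for 2T-p190-B-/-, and values below keep this order of replicates. All 2T-WT arrays were thus dimmer than all 2T-p190-B-/- arrays, and 2T-WT replicate 3 was the dimmest. No spot was saturated.

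The deleted gene was looked at first. Arhgap5 has 1 probe, which was not well above background on the 2T-WT arrays and was so only on 2T-p190-B-/- replicate 2, at 49.0 signal units. This probe therefore gave no check of the genotype labels, and whether it lies in the deleted part was not tested.

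The transcripts did not follow the sorting gate in a simple way. The probe for Slamf1, required by the gate, was not well above background on any of the 6 arrays, whereas both probes for Cd48, gated out as a surface protein, were well above background on all 6. Of the other antigens required by the gate, Ly6a was detected on 6 arrays and Kit on 5. Outside the gate, Tek was detected on 6 arrays and Procr on none. Cd34 and Flt3 each had a probe detected on most or all arrays and another detected on fewer. Together 5 of 11 probes, of 4 genes, were detected on all 6 arrays, and 2 probes on none. Of all probes on the array, 34.9% were detected on all 6 arrays and 16.8% on none. A probe at background sets no upper limit on the antigen at the cell surface, and in bulk samples fewer cells carrying a transcript and less of it per cell cannot be told apart.

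**Figure D1:**
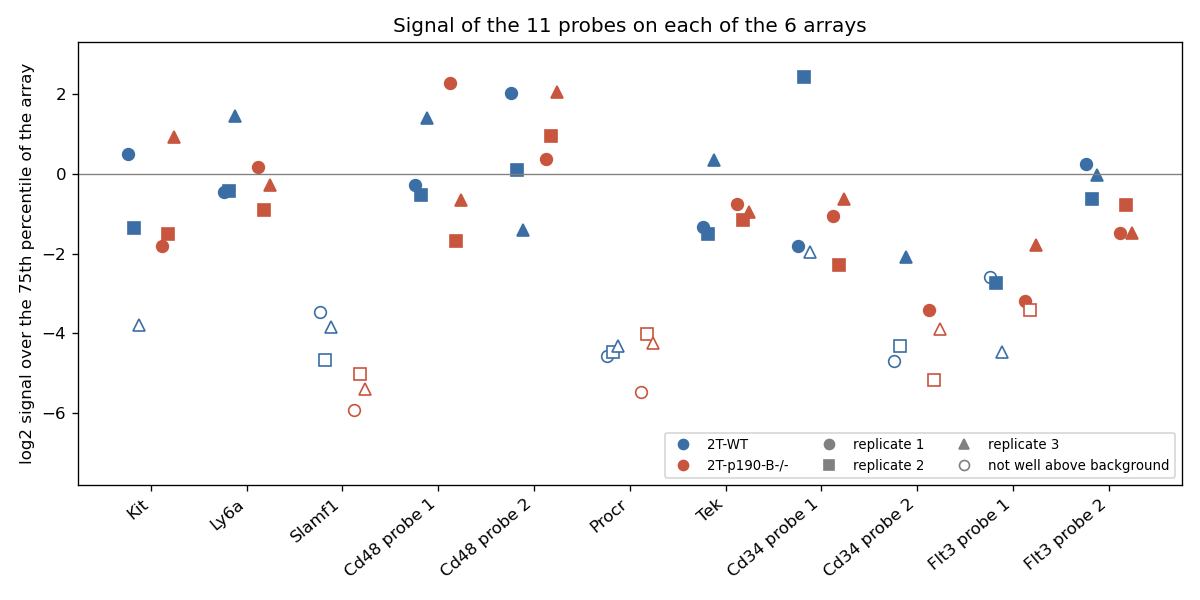
Log2 signal over the 75th percentile of the array (y axis) for the 11 probes (x axis), 1 symbol per array. Filled symbols were well above background and open symbols were not; Slamf1 and Procr have open symbols only, and both Cd48 probes have filled symbols only.

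Between genotypes, none of the 8 probes that could be tested passed the threshold of the limma fit. A probe was tested where it was detected on at least 3 of 6 arrays, which left out Slamf1, Procr and Cd34 probe 2. With limma over 25160 probes, 0 of 8 member probes had an adjusted p under 0.05, against 0% of all probes tested (0 of 25160), and 0 of 8 had an unadjusted p under 0.05, against 6.57% of all (1654). By the methods' t-test 0 probes passed after adjustment and 1783 before it. Groups did not overlap for 1 of 8 member probes, Flt3 probe 2, against 15.9% of all probes tested. The log2 difference, 2T-p190-B-/- minus 2T-WT, was below 0 for 5 of 8 member probes and for 60.8% of all. The median difference of all probes tested was −0.33 and depended on the scaling, being −0.10 after quantile normalization. With 3 arrays against 3, an exact permutation test of a single probe cannot give a p under 0.1.

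**Figure D2:**
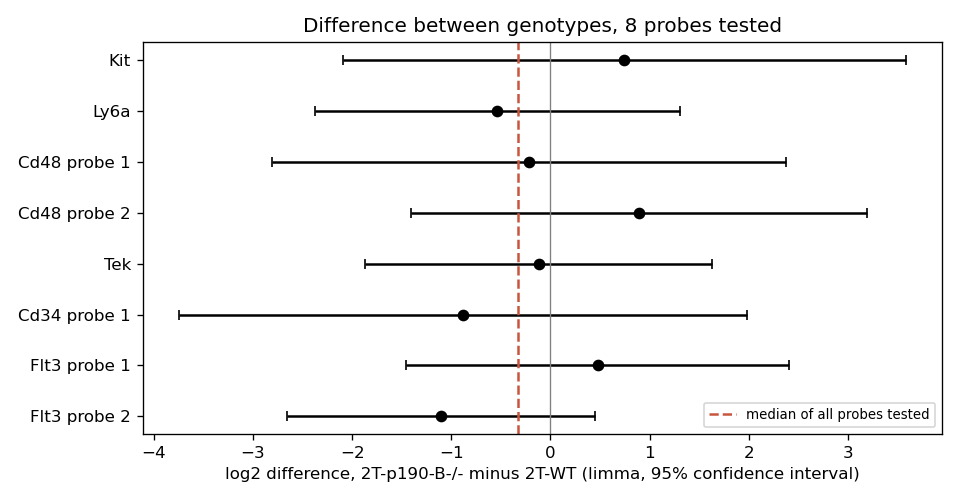
Log2 difference between 2T-p190-B-/- and 2T-WT (x axis) for the 8 probes tested (y axis), with 95% confidence intervals from limma. Every interval crosses 0, and the dashed line marks the median of all probes tested, −0.33.

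Kit, the first antigen of the gate, was uneven within each genotype. The log2 signals of its probe were 0.50, −1.34 and −3.79 in 2T-WT, against −1.81, −1.51 and 0.91 in 2T-p190-B-/-. The lowest value, on 2T-WT replicate 3, was not well above background, and the groups overlapped. The mean for 2T-WT was −1.55 ± 2.15 (SD, n = 3), and that for 2T-p190-B-/- −0.80 ± 1.49 (SD, n = 3). The log2 difference was 0.74 ± 1.23 (SE), with a 95% confidence interval of −2.09 to 3.58 and a limma adjusted p of 0.851. Leaving out 2T-p190-B-/- replicate 3 gave −0.11, whereas leaving out 2T-WT replicate 3 gave −0.38 and 2T-WT replicate 1 gave 1.76. The interval spans from 0.234-fold to 12.0-fold, so these arrays set little limit on a change of Kit. With normexp background correction the difference was 0.015, with a 95% confidence interval of −1.51 to 1.54.

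Ly6a, which encodes Sca-1, was detected throughout. Its log2 signal was −0.45, −0.42 and 1.46 in 2T-WT and 0.17, −0.90 and −0.29 in 2T-p190-B-/-. 2T-WT replicate 3 stood above the other 5 arrays, and the remaining values of both genotypes overlapped. The log2 difference was −0.53 ± 0.80 (SE), with a 95% confidence interval of −2.38 to 1.31 and a limma adjusted p of 0.835. Without 2T-WT replicate 3 it was 0.10, and without 2T-WT replicate 1 −0.86.

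Slamf1, which encodes CD150, gave processed signals of 11.2, 8.96 and 3.75 units in 2T-WT and 6.34, 9.87 and 5.98 in 2T-p190-B-/-. None of these was well above background, so no fold is given. After scaling the log2 values were −3.47, −4.66 and −3.85 against −5.92, −5.02 and −5.40. The scaled groups did not overlap while the unscaled signals did, and the genotype with the higher 75th percentiles held the lower scaled values. Under a more lenient call of the scanner software, positive and significant against background, the Slamf1 probe was called on 5 of 6 arrays.

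Cd48 is covered by a pair of probes, and they gave different accounts of the same transcript. Probe 1 lies at position 621 of the transcript, on chromosome 1 from 173629721 to 173629780 (mm9, the build of the array annotation), and probe 2 begins 333 bases further towards the 3′ end. The log2 signal of probe 1 was −0.27, −0.54 and 1.40 in 2T-WT and 2.27, −1.68 and −0.65 in 2T-p190-B-/-. That of probe 2 was 2.02, 0.09 and −1.41 in 2T-WT and 0.38, 0.96 and 2.05 in 2T-p190-B-/-. On 2T-WT replicate 3 probe 1 was above its own mean and probe 2 at its lowest. The probes lay on the same side of their own means on 1 of 6 arrays, and their centred values were 1.96 apart on average. The log2 difference between genotypes was −0.22 ± 1.13 (SE) for probe 1 and 0.89 ± 1.00 (SE) for probe 2, with limma adjusted p-values of 0.959 and 0.772. Their 95% confidence intervals were −2.81 to 2.37 and −1.41 to 3.20. The sign for probe 1 turned with normexp background correction, to 0.037, and on leaving out 2T-WT replicate 3 (0.38), 2T-p190-B-/- replicate 2 (0.61) or 2T-p190-B-/- replicate 3 (0.095), while it was −1.36 on leaving out 2T-p190-B-/- replicate 1. For probe 2 the difference was 0.07 with 2T-WT replicate 3 left out and 1.79 with 2T-WT replicate 1 left out. Neither probe thus showed a difference in Cd48 between genotypes larger than the spread of the arrays.

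The probes shown were picked as lying in coding sequence, which was not checked against an annotation of the transcripts. They are the Tek probe and probe 1 of Cd48, of Cd34 and of Flt3, and the latter each have a partner nearer the 3′ end. Each is 60 bases long, written 5′ to 3′ in the sense of the transcript as the array files give it, in lower case throughout.
Cd48 probe 1: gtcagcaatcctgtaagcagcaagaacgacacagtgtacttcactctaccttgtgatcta
Cd34 probe 1: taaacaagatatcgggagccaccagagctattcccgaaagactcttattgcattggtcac
Flt3 probe 1: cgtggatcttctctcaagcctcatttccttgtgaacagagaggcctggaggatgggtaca
Tek: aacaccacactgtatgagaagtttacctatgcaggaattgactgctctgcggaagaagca

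**Figure D3:**
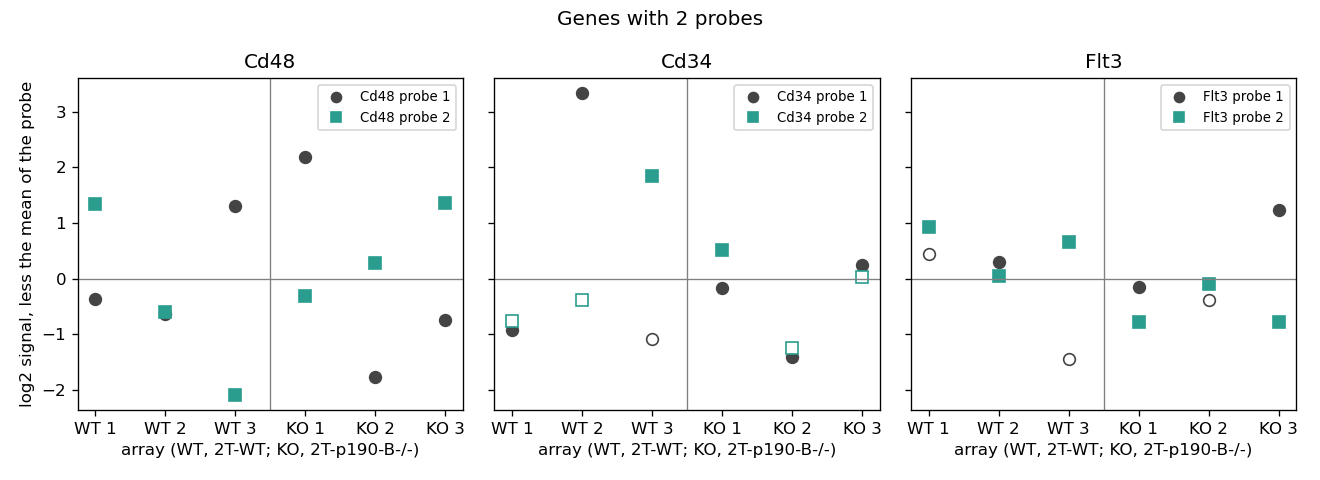
Log2 signal of each probe less its own mean over the 6 arrays (y axis) for Cd48, Cd34 and Flt3, by array (x axis); open symbols were not well above background. The Cd48 probes lie on the same side of 0 on 1 of 6 arrays, the Cd34 probes on 3 and the Flt3 probes on 4.

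Of the HSC antigens outside the gate, Tek was detected and Procr was not. The log2 signal of Tek was −1.33, −1.51 and 0.35 in 2T-WT and −0.75, −1.15 and −0.95 in 2T-p190-B-/-. 2T-WT replicate 3 was the highest and the 2T-p190-B-/- values lay between those of 2T-WT. The log2 difference was −0.12 ± 0.76 (SE), with a 95% confidence interval of −1.87 to 1.63 and a limma adjusted p of 0.968, and it was 0.47 without 2T-WT replicate 3 and −0.46 without 2T-WT replicate 2. Procr, on chromosome 2 from 155580945 to 155581004 (mm9), gave 5.20, 10.2 and 2.71 signal units in 2T-WT and 8.71, 19.8 and 13.4 in 2T-p190-B-/-. None was well above background, so no fold is given, and 4 of 6 passed the lenient call.

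Cd34, a sialomucin of progenitors, rested on 1 array. The log2 signal of probe 1 was −1.81, 2.44 and −1.97 in 2T-WT and −1.06, −2.30 and −0.64 in 2T-p190-B-/-. 2T-WT replicate 2 stood above every other array, and replicate 3 was not well above background. The log2 difference was −0.88 ± 1.24 (SE), with a 95% confidence interval of −3.74 to 1.98 and a limma adjusted p of 0.822, and it turned to 0.56 without 2T-WT replicate 2 and was −1.65 without 2T-WT replicate 3. Probe 2, which begins 1407 bases further along, was detected on 2 arrays only, 2T-WT replicate 3 and 2T-p190-B-/- replicate 1. It was not raised on 2T-WT replicate 2, where its log2 signal was −4.31.

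Flt3, the receptor tyrosine kinase of early lymphoid and myeloid progenitors, held the 1 tested member probe whose groups did not overlap. The log2 signal of probe 2 was 0.25, −0.63 and −0.03 in 2T-WT and −1.47, −0.78 and −1.47 in 2T-p190-B-/-. All 2T-p190-B-/- values were below all 2T-WT values, the nearest being 2T-WT replicate 2 and 2T-p190-B-/- replicate 2. The means were −0.14 ± 0.45 (SD, n = 3) and −1.24 ± 0.40 (SD, n = 3). The log2 difference was −1.10 ± 0.67 (SE), with a 95% confidence interval of −2.66 to 0.45, a limma adjusted p of 0.637 and an exact two-sided permutation p of 0.1, the smallest this design allows. Relative to the median of all probes it was −0.77. By the methods' t-test on the same values this probe alone of the 8 had an unadjusted p under 0.05, against 1783 of all 25127 probes. Its unadjusted p by that test was 0.0334, with an adjusted p of 0.634. Before scaling, the signals were 147.9, 146.7 and 52.9 units against 138.9, 186.4 and 90.8, which overlap. Probe 1, which begins 1967 bases nearer the 5′ end, had a log2 difference of 0.48 ± 0.84 (SE), a 95% confidence interval of −1.45 to 2.41 and a limma adjusted p of 0.859. It was detected on 1 of 3 2T-WT and 2 of 3 2T-p190-B-/- arrays, and its sign turned with normexp background correction, to −0.82, beside −0.77 for probe 2 in that setting. For probe 1 it also turned with 2T-WT replicate 3 left out (−0.13) or 2T-p190-B-/- replicate 3 left out (−0.026).

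The spread within a genotype differed widely among the members. The within-group SD had a median of 1.06 over all probes tested and 0.89 over probes detected on all 6 arrays. Cd34 probe 1 (1.87), Kit (1.85), Cd48 probe 1 (1.63) and Cd48 probe 2 (1.36) lay above both medians. Flt3 probe 2 (0.43), Tek (0.74) and Ly6a (0.86) lay below both, and Flt3 probe 1 (0.97) lay between them. Among the 5 probes detected on all 6 arrays, Ly6a and Tek had the most similar course, with centred log2 values 0.24 apart on average. The pair of Cd48 probes had the least similar course, at 1.96.

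Other named genes followed some members more closely over the 6 arrays, among 13751 probes detected on all of them. For Ly6a these were Grap2 and 4931419H13Rik, at mean absolute centred differences of 0.10 and 0.11. For Cd48 probe 1 they were Calhm6 (0.16) and Ndufaf7 (0.22), and for Cd48 probe 2 Il31ra (0.20) and Gm16441 (0.25). For Tek they were Cep164 (0.13) and Mfge8 (0.14), and for Flt3 probe 2 Map4k4 and Samd1 (both 0.14).

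Other surface molecules of HSCs were then compared, each gene by its brightest probe. Of 20 such genes, 9 were detected on all 6 arrays and 14 could be tested, with 8 differences below 0, 6 above it and a median difference of −0.18, which ran from −0.54 to −0.0019 over the alternatives. None passed, and groups did not overlap for 3, against 15.9% of all probes tested. Over the alternatives that count was lowest at 1, after quantile normalization, with the array median and with the authors' values. It was highest at 7 on the slide with both genotypes, where groups did not overlap for 11487 of all 25147 probes tested. The smallest p-values belonged to Cxcr4, the receptor for CXCL12 (log2 difference −1.90), the integrin Itga6 (−1.27) and the junctional adhesion molecule Jam3 (−1.04), with limma adjusted p-values of 0.637, 0.637 and 0.657. Cxcr4 was detected on 2 of 3 2T-WT and 1 of 3 2T-p190-B-/- arrays, with the other 3 at background. With 2T-WT replicate 3 left out the difference was −1.02 for Cxcr4 and −0.81 for Itga6, and with 2T-WT replicate 1 left out it was −0.55 for Jam3. Genes used as HSC reporters numbered 8, of which 6 were tested with a median of 0.23, which became −0.16 without 2T-WT replicate 3 and −0.18 without 2T-p190-B-/- replicate 3, but 0.84 without 2T-WT replicate 2 and 0.85 without 2T-p190-B-/- replicate 1. Mecom, a transcription factor of HSCs, was −0.13, 1.20 and 0.77 in 2T-WT and 2.37, 1.34 and 4.36 in 2T-p190-B-/-, with a log2 difference of 2.07 and a limma adjusted p of 0.637. It was 1.24 with 2T-p190-B-/- replicate 3 left out. Fgd5 had a difference of −1.26 and Hoxb5 of 1.05, also without passing (limma adjusted p of 0.637 and 0.811), and Hoxb5 was detected on only 1 of 3 2T-WT arrays. That of Fgd5 was −0.74 with 2T-WT replicate 3 left out. That of Hoxb5 turned to −0.44 with 2T-p190-B-/- replicate 2 left out and was 1.99 with 2T-p190-B-/- replicate 1 left out.

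Ligands, partners and signalling molecules of the members gave no call either. Of 13 ligands and partners 8 were tested, 5 lower and 3 higher, with a median of −0.66 that ran from −1.29 to −0.36 over the alternatives, and 2 had an unadjusted limma p under 0.05, against 6.57% of all probes tested. Over the alternatives that count was lowest at 0, of 5 genes with probes detected on all 6 arrays. It was highest at 4, of 13 genes without the filter on dim probes, and it was 1 by the methods' t-test. Of all probes, 995 of 13751, 2217 of 39379 and 1783 of 25127 had such a p under these settings, in the same order. Among the 2 list genes at an unadjusted limma p under 0.05 was Sh2d1b1, an adaptor of SLAM receptors. It was detected on 2 of 3 2T-p190-B-/- arrays, with a log2 difference of −2.62 and a limma adjusted p of 0.637. Cd244a, the receptor for CD48, had a log2 difference of −1.36 and the same limma adjusted p, again on scaled values only. Of 18 signalling molecules downstream of Kit, Flt3 and Tek 10 were tested, 9 lower and 1 higher, with a median of −0.80, where 60.8% of all probes tested were lower. Without 2T-WT replicate 1 there were 5 lower and 5 higher, with a median of −0.41, and on the slide with both genotypes 6 lower and 4 higher. With normexp all 10 were lower, and without 2T-WT replicate 2 the median was −1.14. Ptpn11 (−3.54), Akt1 (−1.51) and Stat5a (1.42) had the smallest p-values, each with a limma adjusted p of 0.637. Akt1 was detected on 2 of 3 2T-p190-B-/- arrays and Stat5a on 1 of 3 2T-WT arrays, and Dok1 had the brightest probe. The difference of Ptpn11 was −1.74 with 2T-WT replicate 3 left out, and that of Stat5a 0.52 with 2T-p190-B-/- replicate 2 left out. Of 19 relatives of the members on the array 15 were tested, 8 lower and 7 higher, with a median of −0.41, which became 0.02 after quantile normalization and −0.78 without 2T-WT replicate 1. The SLAM receptor Cd84 was 1.93 higher on the log2 scale, Ly6i had a difference of −1.27 and Csf1r of −1.18, each with a limma adjusted p of 0.637. Those of Ly6i and Csf1r became −0.73 and −0.74 with 2T-WT replicate 2 and 2T-WT replicate 3 left out, in that order.

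Transcripts of Itgam (CD11b), Cd3e and Cd5, whose products the lineage stain binds, were detected on all 6 arrays. They belong to a list of lineage antigen genes with 10 on the array, of which 7 were detected on all 6 arrays. That list also holds Cd4 and Cd8a, which the methods do not name among the lineage antibodies. Its brightest probe was that of Itgam, with log2 signals of 10.68, 9.74 and 12.48 in 2T-WT and 8.97, 9.20 and 9.79 in 2T-p190-B-/-. The summed level of the list, in multiples of the 75th percentile, was 1722, 893.03 and 5842 in 2T-WT and 532.2, 619.05 and 937.8 in 2T-p190-B-/-. Most of each sum came from the Itgam probe alone, so it is not a level of the list as a whole. The dimmest array, 2T-WT replicate 3, had the highest sum. Each sum is a ratio to the 75th percentile of its array, which was 53.9 units there and 124.6 to 385.2 elsewhere. Unscaled sums were not compared, so more lineage transcript in 2T-WT cannot be read from these values. The list had a median difference of −0.85 over 8 genes tested, and none passed. Over the alternatives that median ran from −1.31, without 2T-p190-B-/- replicate 3, to −0.04, when all tested probes of a gene were averaged; it was −1.20 with detection on all 6 arrays and −0.18 after quantile normalization. Its part in the values of Cd48, an antigen of most leukocytes, was not tested.

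Markers of mature cells gave a mixed picture by list. For B lymphocytes Pax5 was well above background on all 6 arrays. Cd79a was at 9.47 on 2T-WT replicate 3 and between −4.89 and −1.65 on the other 5 arrays, and the summed level of the list was 1056 there against 82.99 to 145.01 elsewhere. Over all arrays Cd22 had the brightest probe of the list and gave most of the sum on those 5. For T lymphocytes Cd3e, Cd3g and Lck were detected on all 6 arrays, and Cd4 had the brightest probe. Of the defining neutrophil genes S100a9 was detected on no array, S100a8 on 2 and Ngp on 5, and Lcn2 had the brightest probe. Of those of red cells, Alas2 was detected on 4 arrays, and Slc4a1 had the brightest probe. Of those of megakaryocytes Pf4, Ppbp and Gp9 were each detected on 1, and Itgb3 had the brightest probe.

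The remaining lists were likewise without a call. Mast cell and basophil Cpa3 and Fcer1a were detected on no array and Mcpt8 on 5, while Tpsb2 had the brightest probe. The macrophage genes Csf1r and Adgre1 were detected on 6 arrays and Cd68 on 2, and Csf1r had the brightest probe. Cd14 had a log2 difference of −2.17 and Marco of 1.61, both with a limma adjusted p of 0.637. Of endothelial genes, which matter here since Tek and Procr are also carried by endothelium, Cdh5 was detected on 2 arrays, Pecam1 on 4 and Emcn on 3, and Kdr had the brightest probe. Emcn had a log2 difference of −2.39 with a limma adjusted p of 0.637, and was detected on 1 of 3 2T-p190-B-/- arrays. Of the committed progenitor genes, Mpo was detected on 5 arrays, Klf1 on 2 and Il7r on none, and Csf3r had the brightest probe. The part of any such cells in the member values was not tested.

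**Figure D4:**
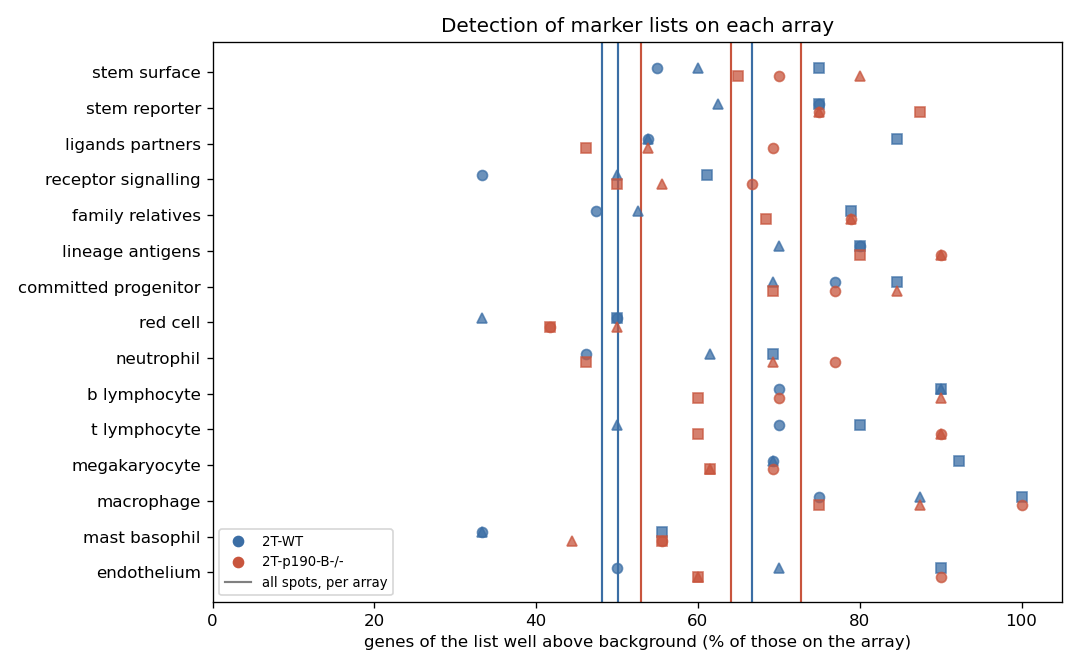
Genes of each list well above background, in percent of those on the array (x axis), for 15 lists (y axis); symbols are arrays (circle, square and triangle for replicates 1, 2 and 3) and vertical lines are all spots of each array, coloured by genotype. Lineage antigen genes were detected on each array at a count of 7 to 9 of 10. Each gene is shown by its brightest probe while the lines count every non-control spot, so symbols and lines are not on the same basis.

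Median differences of these lists were 0.11 (red cell), −0.61 (neutrophil), −1.43 (B lymphocyte), −0.00078 (T lymphocyte), −0.11 (megakaryocyte), 0.0017 (macrophage), 0.67 (mast cell and basophil), −0.21 (endothelium) and −0.45 (committed progenitor), beside −0.33 for all probes tested. Over 18 alternatives they ran from −0.68 to 1.06 for red cells, −0.93 to −0.31 for neutrophils, −2.08 to −0.43 for B lymphocytes, −0.32 to 0.54 for T lymphocytes and −0.80 to 0.15 for megakaryocytes. They ran from −0.27 to 0.48 for macrophages, −1.46 to 1.06 for mast cells and basophils, −0.61 to 0.31 for endothelium and −0.84 to 0.03 for committed progenitors. Without 2T-WT replicate 3 the B lymphocyte median was −0.43 and that of mast cells and basophils −0.53. Only the neutrophil and B lymphocyte medians of these 9 lists kept 1 sign over all alternatives.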

How the data were processed

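Per the file headers, the authors' arrays were scanned and read with Agilent Feature Extraction 10.5.1.1, which gave background-corrected and detrended signal intensity per spot, deposited without scaling between arrays. The authors' table of processed values holds the same intensities as a ratio to a constant of each array, with column medians of 1.0; its exact centring is not stated. Control and outlier spots were left out, log2 intensity less that of the 75th percentile was averaged over spots of a probe, and probes with that call on 3 or more of the 6 arrays were fitted with limma 3.58.1 in R 4.3.3, with Benjamini-Hochberg adjustment. The fitting code was run on simulated data with a smaller spread than these arrays, which does not show what size of change could be detected here. Arrays lay on 3 slides, of which 1 held both genotypes, and were scanned on 1 day. Genes were named through RefSeq accessions for 26412 of 39429 probes, through a symbol for 3854 and a synonym for 735, and as in the files for 8428. Named were all members, Arhgap5, of each list its defining genes and the 3 tested genes of smallest p, and the genes closest in course; for lists of lineage antigens, progenitors, mature cells, endothelium and signalling molecules the gene with the brightest probe is also given, which does not rank transcripts, since probes differ in response. Some genes that this rule names are not reported here. The members and lists were chosen with earlier results of these data known. The number of arrays limits the precision.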

Additional observations from a re-analysis of the deposited data

How the results depend on the processing

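No probe passed the adjusted threshold under any alternative run. The 1654 probes at an unadjusted p under 0.05 became 3613 with normexp, 995 when detection on all 6 arrays was required, and 1069 to 2444 with 1 array left out. The 4006 probes without overlap became 2382 with detection on all 6 arrays, 11487 on the slide with both genotypes, where 2 arrays faced 2, and 5768 to 8113 with 1 array left out; fewer arrays make non-overlap more frequent. Of the 4006, 1124 were higher and 2882 lower, against 1447 and 2307 after quantile normalization and 835 and 5000 with normexp. Of the 1654, 801 were higher and 853 lower, and which side was larger depended on the setting: 629 and 2984 with normexp, 971 and 837 after quantile normalization, 920 and 751 with the array median, 927 and 737 with the authors' values, and 769 and 351 or 738 and 331 without 2T-p190-B-/- replicate 1 or 2. The median difference of −0.33 became −0.22 with the array median, −0.10 with quantile normalization, −0.47 with normexp, −0.21 with the authors' values, −0.55 without the filter, −0.44 with detection on all 6 arrays and −0.48 with slide as a block or on the slide with both genotypes, which are the same fit. It ran from −0.44 to −0.24 with 1 array left out.

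With a replicate block, 1872 probes had an unadjusted p under 0.05, 0 passed, and the median was −0.33. Deviations of same-numbered arrays correlated at 0.0090, 0.016 and 0.086 over probes, against −0.075 to 0.067 for arrays of unlike number. With so few arrays these values cannot tell whether the numbers pair the arrays. No probe passed without the block either, so it had no call to change.

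Sign turned in part of the alternatives for 6 of 8 probes. With 1 array left out the differences ran from −0.38 to 1.76 for Kit, −0.86 to 0.10 for Ly6a, −1.36 to 0.61 for Cd48 probe 1, −0.46 to 0.47 for Tek, −1.65 to 0.56 for Cd34 probe 1 and −0.13 to 0.81 for Flt3 probe 1. With normexp, Kit was at 0.015, Cd48 probe 1 at 0.037, Tek at −0.38, Cd34 probe 1 at −1.44 and Flt3 probe 1 at −0.82. On the slide with both genotypes Ly6a was at −0.89, Tek at −0.37 and Cd34 probe 1 at −1.91. Flt3 probe 1 was at 0.94 after quantile normalization, and Tek at 0.0022 with the authors' values. Cd48 probe 2 and Flt3 probe 2 kept their sign in 17 alternatives, some of which, such as the filters and the methods' t-test, leave a difference as it is, at 0.074 to 1.79 and −1.35 to −0.77. Genes with a probe detected on every array numbered 4, and 6 under the lenient call or without 2T-WT replicate 3. Of 210 list medians under the 14 alternatives that can move them, with the slide settings counted once, 35 had the other sign. The cause was not tested. Probes near background limit Slamf1 and Procr.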
